A study of Mus musculus with 4 samples.

Results

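Srebf1, Srebf2, Scap, Insig1, Insig2, Mylip and Stard4 govern how much cholesterol a cell makes, takes in and moves between membranes. They were followed in adrenal glands of wild-type mice and of mice without the V1a vasopressin receptor. The members were all probe sets that the platform annotation gives to exactly 1 of these 7 genes. There were 13 of them among 45037 probe sets, and the 7 genes stand among 18193 genes named in that way. Both groups were male mice aged 2 months, labelled wild_type in one and V1a_KO in the other. Each group had 2 samples of adrenal gland, each read on 1 short-oligonucleotide array. The labels give neither the strain, nor the part of the V1a gene (Avpr1a) that was removed, nor whether the samples of a genotype came from separate animals. Any p-value here rests on the spread among 2 samples a group, and that spread could be technical. In RNA of a whole gland, fewer cells of a type and less RNA per cell cannot be told apart.

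The sterol regulatory element binding proteins, SREBP-1 from Srebf1 and SREBP-2 from Srebf2, are transcription factors held in the endoplasmic reticulum membrane. When sterols are scarce, the escort protein Scap carries them to the Golgi, where proteases release the part that enters the nucleus. When sterols are plentiful, Insig1 or Insig2 binds Scap and keeps the complex in place. SREBP-2 mainly drives genes of cholesterol synthesis and lipoprotein uptake, SREBP-1 mainly those of fatty acid synthesis, and Insig1 is itself an SREBP target. Adrenocortical cells use cholesterol as the raw material of corticosteroids.

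Promoter windows of Insig1, Srebf2 and Srebf1 are shown because SREBPs act through short sites near the starts of their targets, and these genes are known to be under SREBP control themselves. Each window is the 250 bases before an annotated start in RefSeq, build GRCm38.p6, written 5′ to 3′ on the gene's strand. The table held 11 such windows for 6 of the 7 member genes. Capitals mark matches on either strand to the motifs searched. These were the core of the sterol regulatory element ATCACCCCA, the same with a C after it, a looser form TCACNCCAC, the E-box CACGTG, the NF-Y box CCAAT, the GC box GGGCGG, and the LXR element, a direct repeat. The first 3 overlap one another in their letters, and N stands for any base.
Insig1, chr5:28071162-28071411, + strand: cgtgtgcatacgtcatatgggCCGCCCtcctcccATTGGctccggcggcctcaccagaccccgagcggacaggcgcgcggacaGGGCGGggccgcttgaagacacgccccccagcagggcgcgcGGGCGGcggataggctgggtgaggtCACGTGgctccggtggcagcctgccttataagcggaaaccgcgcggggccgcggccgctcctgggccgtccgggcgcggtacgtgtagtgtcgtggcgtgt
Srebf2, chr15:82147019-82147268, + strand: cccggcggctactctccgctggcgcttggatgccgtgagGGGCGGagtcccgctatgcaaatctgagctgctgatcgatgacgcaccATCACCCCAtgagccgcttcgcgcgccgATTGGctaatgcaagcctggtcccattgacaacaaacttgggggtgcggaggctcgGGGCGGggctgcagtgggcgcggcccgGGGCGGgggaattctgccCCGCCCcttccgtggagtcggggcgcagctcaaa
Srebf1, the most downstream of its 3 windows, chr11:60210472-60210721, - strand: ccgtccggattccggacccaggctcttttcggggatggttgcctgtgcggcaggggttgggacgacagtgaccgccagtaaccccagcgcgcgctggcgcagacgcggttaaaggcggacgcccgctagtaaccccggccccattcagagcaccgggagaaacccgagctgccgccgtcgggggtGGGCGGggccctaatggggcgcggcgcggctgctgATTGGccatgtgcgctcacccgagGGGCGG

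The Srebf2 window held ATCACCCCA, beginning 163 bases before the start, with an NF-Y box at 135. These 9 letters occurred in 0.240% of all 32851 windows of the same length. Exact matches to the form with a further C (0.0731% of windows), the looser TCACNCCAC (1.05%) and the LXR element (0.0152%) were in 0 of the member windows. The Insig1 window held an E-box 101 bases before the start, a motif of 6.02% of all windows, and an NF-Y box at 216. The Srebf1 window held an NF-Y box at 30 bases and GC boxes at 65 and 6. NF-Y and GC boxes are common, in 33.8% and 32.7% of windows. A match describes letters and not a bound site, and sites that depart from the letters searched were not looked for.

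Avpr1a itself could not check the genotype labels. Its 2 probe sets lay near the lowest value of the arrays, 2.30 log2 units. The first stood at 2.53 and 2.53 on the wild-type arrays against 2.53 and 2.60 in the knockout. The second stood at 2.31 and 2.32 on the wild-type arrays against 2.32 and 2.33 in the knockout. The knockout arrays were the most alike pair, at a correlation of 0.986, and the wild-type arrays correlated at 0.924. The correlation of wild-type array 1 with each of the others, over tested probe sets, was 0.919 to 0.924, while among those others it was 0.974 to 0.986. Adrenal cortex markers were present on each array (8 of 8 genes tested, 5 lower). The log2 of their summed level was 16.63 and 16.60 for wild type and 16.55 and 16.50 for the knockout, without overlap. The hepatocyte list (6 of 6 genes on the array, 1 tested) summed to 10.40 and 7.43 for wild type and 5.03 and 5.05 for the knockout, without overlap. Its tested gene, Serpina1b, stood at 7.97 and 7.20 against 2.30 and 2.30, high on both wild-type arrays. Serpina1b met the filter for testing, 4 log2 units, on those arrays alone, so it had to differ. Alb stood at 8.86 on wild-type array 1 and between 2.42 and 2.43 elsewhere. Ttr and Apoa1 were also high there, at 8.95 and 6.88, against 2.30 and 2.51 on wild-type array 2. Fgb and Apoh lay at 2.30 and 2.31 on wild-type array 2. The sum of that array, and with it the lack of overlap of the list, therefore rested on Serpina1b. The capsule and fibroblast list (6 of 6 tested, 4 lower) summed to 11.41 and 10.75 for wild type and 10.27 and 10.58 for the knockout, without overlap, and the medulla list (7 of 8 on the array) to between 15.46 and 16.03, with overlap. The gap between the 3' and 5' control probe sets of Actb, a measure of RNA integrity, was 2.12 and 2.46 for wild type and 2.19 and 2.63 for the knockout, with overlap. For Gapdh the gap was 0.80 and 0.60 for wild type and 0.39 and 0.63 for the knockout, also with overlap. On wild-type array 1 the gap was smallest for Actb and largest for Gapdh. The part of these differences in the results was not tested, and the members are given also without single arrays.

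Values are log2 expression units of a probe set, and differences are knockout minus wild type. Testing took the 17228 probe sets that were at 4 log2 units or more on 2 or more of the arrays. Of the member probe sets 12 met this, and the other, Scap 1442885_at, lay at 2.30 throughout. In limma 0 of the 17228 passed an adjusted p of 0.05, members included, while 885 (5.14%) had an unadjusted p under 0.05, 3.01% lower and 2.13% higher in the knockout. Among the members 2 of 12 had such a p, Srebf2 1426744_at on the lower side and Stard4 1429239_a_at on the higher. The latter was above the filter on the knockout arrays alone, so it had to differ and its p gives no support. The count was 5 without wild-type array 1, 6 without wild-type array 2, and 0 without knockout array 1 or knockout array 2, where 12.0%, 37.8%, 0.981% and 1.19% of all tested probe sets had such a p. An exact permutation test of a single value, with 2 arrays against 2, cannot go below 0.333, so none is given.

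Of the 12 tested member probe sets 9 had a lower mean in the knockout, as did 54.6% of all tested probe sets. Both knockout arrays lay below both wild-type arrays in 5 of the 12, against 20.0% of all, and above them in 2 of the 12, against 17.4%. The median difference was -0.28 over the 12 and -0.04 over all tested probe sets. Srebf1, Srebf2, Scap and Insig1 were the 4 genes whose tested probe sets all read lower. Insig2 and Stard4 had probe sets on both sides, and Mylip had 1 probe set with a difference near 0.

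**Figure D1:**
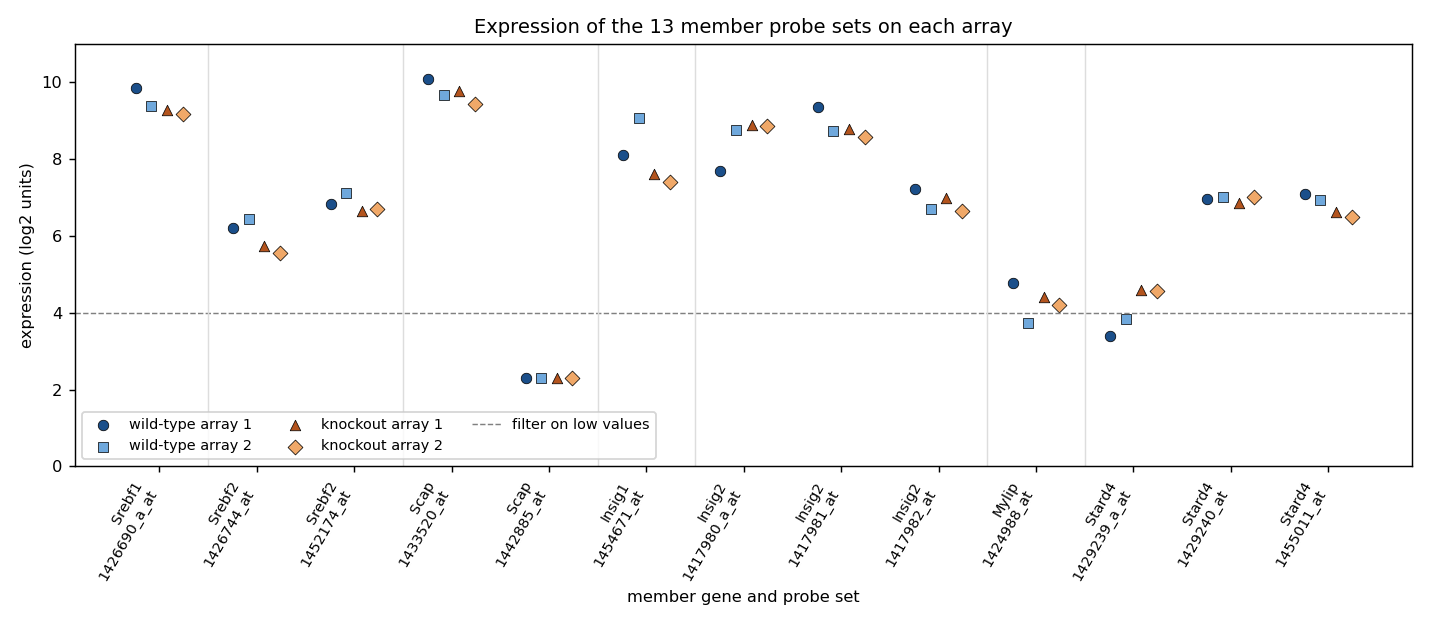
Expression in log2 units (vertical axis) of the 13 member probe sets (horizontal axis), with 1 point for each of the 4 arrays and a dashed line at the filter of 4 log2 units. The knockout points of Insig1, at 7.63 and 7.40, lie below its wild-type points, at 8.11 and 9.07, and Scap 1442885_at lies at 2.30 throughout.

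Srebf1 was read by 1 probe set of the kind that covers alternative transcripts (1426690_a_at), so SREBP-1a and SREBP-1c were not told apart here. Srebf1 stood at 9.86 and 9.39 on the wild-type arrays against 9.29 and 9.18 in the knockout. The groups did not overlap, but the gap between them was 0.09 and wild-type array 1 stood above the other 3. The difference was -0.38 (SE 0.23, 95% interval -1.06 to 0.29, limma adjusted p = 0.794). Without wild-type array 1 it was -0.15, and without wild-type array 2 -0.62. Over all tested probe sets 15.6% had a difference as low or lower.

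Srebf2, the source of SREBP-2, was read by 2 probe sets. One of them, 1426744_at, stood at 6.20 and 6.45 on the wild-type arrays against 5.73 and 5.55 in the knockout. Both knockout arrays lay below both wild-type arrays, and the gap of 0.47 was larger than the range within either genotype, 0.24 and 0.18. The difference was -0.69 (SE 0.19, 95% interval -1.23 to -0.15, limma adjusted p = 0.794), a ratio of wild type to knockout of 1.61. Leaving out each array in turn gave -0.81 to -0.57.

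The other Srebf2 probe set, 1452174_at, stood at 6.82 and 7.12 on the wild-type arrays against 6.64 and 6.72 in the knockout. The genotypes were again apart with the knockout lower, by a gap of 0.11. The difference was -0.29 (SE 0.19, 95% interval -0.84 to 0.25, limma adjusted p = 0.794), and without wild-type array 2 it was -0.15. Both probe sets of Srebf2 were highest on wild-type array 2.

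Scap, the escort of both SREBPs, was read well by 1433520_at, which stood at 10.08 and 9.66 on the wild-type arrays against 9.78 and 9.43 in the knockout. Knockout array 1 lay between the wild-type arrays, so the groups overlapped. The difference was -0.27 (SE 0.25, 95% interval -0.98 to 0.45, limma adjusted p = 0.797). It shrank to -0.09 without knockout array 2 and to -0.06 without wild-type array 1.

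Insig1, the retention protein under SREBP control, had the most negative difference of the 12 tested member probe sets. Its 1 probe set, 1454671_at, stood at 8.11 and 9.07 on the wild-type arrays against 7.63 and 7.40 in the knockout. Both knockout arrays lay below both wild-type arrays, but the gap of 0.48 was smaller than the range between the wild-type arrays, 0.96. The difference was -1.07 (SE 0.39, 95% interval -2.19 to 0.04, limma adjusted p = 0.794), a ratio of wild type to knockout of 2.10. Over all tested probe sets 1.25% had a difference as low or lower. Its size hung on the wild-type arrays, with -1.55 when wild-type array 1 was left out and -0.59 when wild-type array 2 was.

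Insig2, the second retention protein, differs from Insig1 in its regulation, and its 3 probe sets did not move together. Insig2 1417980_a_at stood at 7.69 and 8.75 on the wild-type arrays against 8.89 and 8.86 in the knockout. Wild-type array 1 was below the other 3 by more than their whole range, and without it the difference of 0.66 (SE 0.42, 95% interval -0.54 to 1.85, limma adjusted p = 0.794) became 0.12. Insig2 1417981_at stood at 9.35 and 8.73 on the wild-type arrays against 8.79 and 8.58 in the knockout, with overlapping groups. Its difference was -0.36 (SE 0.28, 95% interval -1.17 to 0.45, limma adjusted p = 0.794), and -0.05 without wild-type array 1. Insig2 1417982_at stood at 7.21 and 6.70 on the wild-type arrays against 6.98 and 6.66 in the knockout, again with overlap. Its difference was -0.13 (SE 0.27, 95% interval -0.91 to 0.64, limma adjusted p = 0.895), and 0.12 without wild-type array 1. The first probe set was lowest on wild-type array 1, where the other two were highest.

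**Figure D2:**
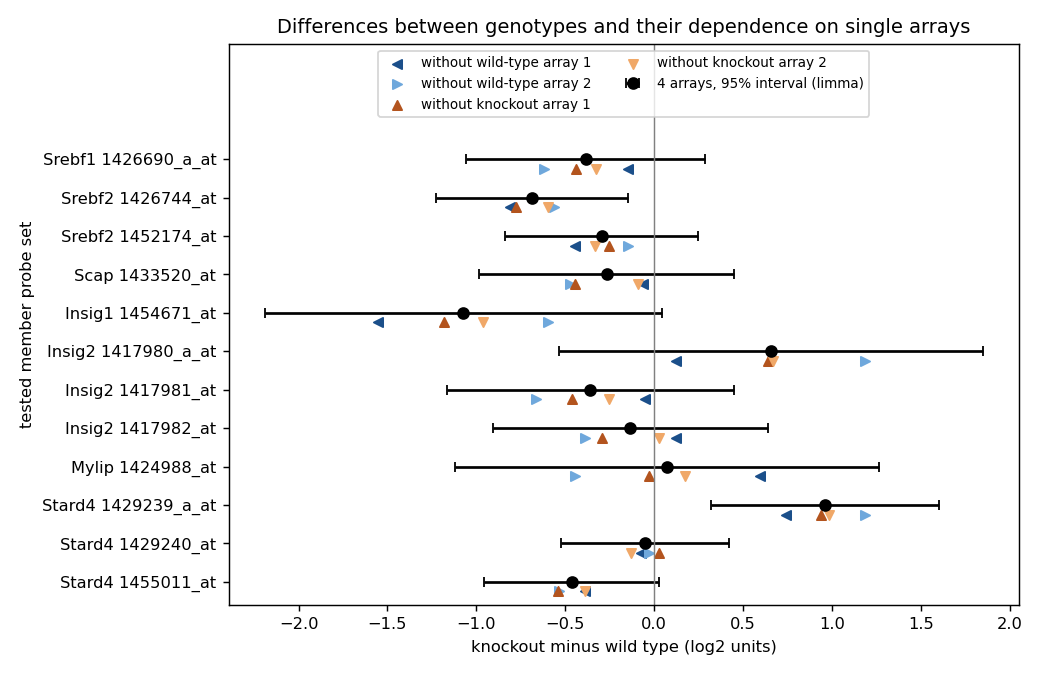
Knockout minus wild type in log2 units (horizontal axis) for the 12 tested member probe sets (vertical axis), as black points with limma's 95% interval, and as coloured markers with 1 array left out. The interval of Srebf2 1426744_at (-1.23 to -0.15) does not include 0, nor does that of Stard4 1429239_a_at (0.32 to 1.60), which was tested only through its high group and had to differ. The markers of Insig1 run from -1.55 to -0.59.

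Mylip, also called Idol, is a ubiquitin ligase that marks lipoprotein receptors for degradation, and its gene is known as a target of the sterol-sensing LXR receptors. Mylip 1424988_at stood at 4.77 and 3.73 on the wild-type arrays against 4.42 and 4.22 in the knockout, close to the filter at 4. Both knockout arrays lay between the wild-type arrays. The difference was 0.07 (SE 0.42, 95% interval -1.12 to 1.27, limma adjusted p = 0.972). It was 0.59 without wild-type array 1 and -0.45 without wild-type array 2, so these arrays give Mylip no direction.

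Stard4 is a soluble protein that carries sterols between membranes, and its gene is known as a target of SREBP-2. Stard4 1455011_at stood at 7.10 and 6.95 on the wild-type arrays against 6.63 and 6.48 in the knockout. The groups did not overlap, and the gap of 0.32 was larger than the range of 0.15 within each of them. The difference was -0.46 (SE 0.17, 95% interval -0.96 to 0.03, limma adjusted p = 0.794), with -0.54 to -0.39 when each array was left out in turn. Stard4 1429240_at stood at 6.95 and 7.004 on the wild-type arrays against 6.85 and 7.01 in the knockout, with overlapping groups and a difference of -0.05 (SE 0.17, 95% interval -0.52 to 0.42, limma adjusted p = 0.941).

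The third probe set of Stard4, 1429239_a_at, went the other way. It stood at 3.40 and 3.84 on the wild-type arrays against 4.60 and 4.56 in the knockout. Both wild-type arrays were below the filter, so it was tested only because the knockout arrays were above it, and had to differ. The difference was 0.96 (SE 0.22, 95% interval 0.32 to 1.60, limma adjusted p = 0.794). Of the 3 probe sets of Stard4, 1 thus read lower without overlap, 1 overlapped and 1 read higher near the floor.

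The pathway around the members is described by 6 gene lists, with the tested probe set of the highest mean standing for its gene. That mean was taken over the 4 arrays, so the choice drew on the same values that are compared. Of the 10110 genes so tested 5.06% had an unadjusted limma p under 0.05, 2.93% lower and 2.14% higher. A lower mean was found in 55.9% of them, both knockout arrays lay below both wild-type arrays in 20.5% and above in 17.1%, and the median difference was -0.05. At an adjusted p of 0.05, limma called 0 genes in each of the 6 lists. For cholesterol synthesis, the main SREBP-2 programme, 16 of 16 tested genes had a lower mean and the median was -0.95. With the mean of the probe sets of a gene 15 of 16 were lower, with a median of -0.83. With plain probe sets only it was 11 of 12, with a median of -0.91. On the probe sets used, 10 of the 16 were lower at an unadjusted limma p under 0.05 and 0 higher, and in 13 the genotypes did not overlap. Without wild-type array 1, 16 were lower and 11 had such a p, in a setting where 12.1% of all genes did. Without wild-type array 2, 14 were lower, 9 of them with such a p, and 1 gene was higher with one, where 38.1% of all genes had one. Without knockout array 1 and without knockout array 2 the count was 4, against 0.821% and 1.10% of all genes.

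Fdps, which makes farnesyl diphosphate, stood at 9.26 and 9.23 on the wild-type arrays against 8.02 and 7.81 in the knockout. Hmgcs1, which makes HMG-CoA, stood at 11.54 and 10.99 against 9.87 and 9.79. Its other 3 tested probe sets differed by 0.26 to 1.34, all with overlap. The probe set at 1.34 stood at 7.17 and 10.60 against 10.30 and 10.16. That at 0.87 stood at 8.11 and 10.77 against 10.38 and 10.24. Both were low on wild-type array 1 alone, and in both the knockout arrays lay below wild-type array 2. The probe set at 0.26 stood at 6.40 and 6.59 against 6.99 and 6.52. Idi1, an isomerase of the same pathway, stood at 10.04 and 10.73 against 8.38 and 8.77, while its other probe set differed by 0.78 with overlap. That probe set stood at 4.81 and 10.02 against 8.02 and 8.37, low on wild-type array 1 alone. Tm7sf2, a sterol reductase, stood at 8.15 and 8.28 against 6.32 and 6.97. In these 4 genes both knockout arrays lay below both wild-type arrays on the probe set used.

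The median level of the 16 cholesterol synthesis genes was 7.78 and 8.27 for wild type and 6.91 and 6.97 for the knockout. Wild-type array 2 was the highest of the 4, as it was for Insig1 and both Srebf2 probe sets. Srebf1 and Stard4 1455011_at were instead highest on wild-type array 1. Of the 12 tested member probe sets 3 were highest on wild-type array 2, against 16.7% of all tested probe sets. On wild-type array 1 it was 6 of the 12, against 47.5% of all.

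**Figure D3:**
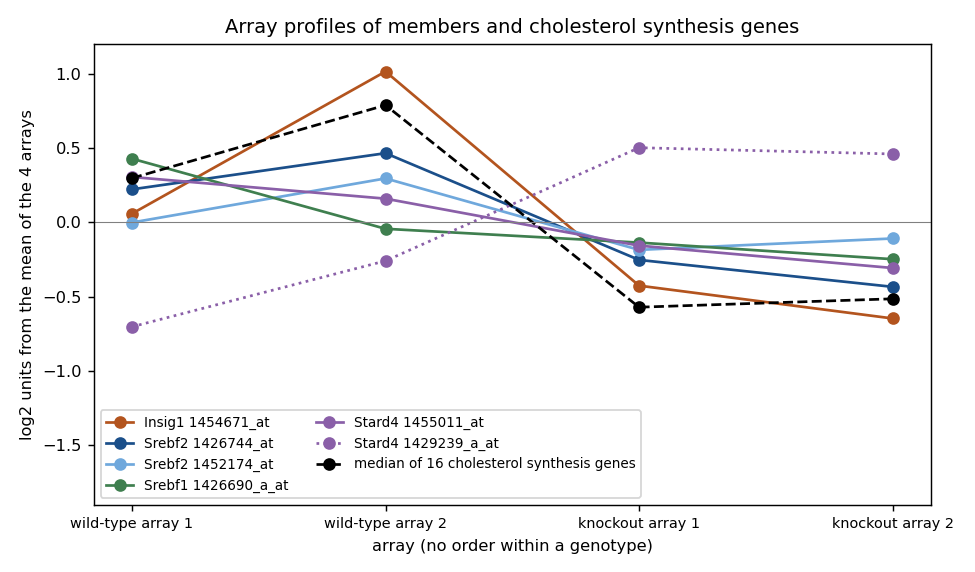
Values of 6 member probe sets and of the median of 16 cholesterol synthesis genes on each array (horizontal axis), in log2 units from their own mean over the 4 arrays (vertical axis), where lines join arrays that have no order. The 6 are the 5 with both knockout arrays below both wild-type arrays, and Stard4 1429239_a_at. The other tested members, among them Scap, Insig2 and Mylip, are not drawn. Insig1, Srebf2 and the median of the list are highest on wild-type array 2, and the dotted line of Stard4 1429239_a_at is highest on the knockout arrays, at 4.60 and 4.56 before centring.

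Fatty acid synthesis, the main SREBP-1 programme, had 12 of 14 tested genes lower, 1 of them at an unadjusted limma p under 0.05, and a median of -0.36. Without wild-type array 1, 9 of 14 were lower and the median was -0.17. Elovl6, a fatty acid elongase and the gene with that p, stood at 8.75 and 9.09 on the wild-type arrays against 7.42 and 7.78 in the knockout, and differed by -1.32 (SE 0.24, limma adjusted p = 0.794). Its other probe set differed by -1.39. Scd1, a desaturase, stood at 12.22 and 12.09 against 10.88 and 11.75, a difference of -0.84, while its other probe set differed by 0.09. Fads1 and Elovl5, which act on polyunsaturated fatty acids, differed by -0.49 and -0.26, and their other probe sets by -0.70 and 0.01. Fat cells also make several of these enzymes and Srebf1. The adipocyte list (6 of 8 genes on the array, 5 tested, 4 lower) summed to 13.28 and 12.79 for wild type and 12.27 and 13.38 for the knockout, so its groups overlapped. Within it, Fabp4, Adipoq and Cidec differed by -0.03, -0.26 and 0.02, all with overlap. Ucp1 and Cidea, which mark brown fat, differed by -4.29 and -3.57 without overlap, and Lep lay at 2.30 on each array. The part of fat cells in these values was not tested.

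The genes of proteins that cleave, carry and degrade the SREBP system gave small differences in RNA. Of 21 tested genes 10 were lower and 11 higher, 0 at an unadjusted limma p under 0.05, with a median of 0.00 and a range of -0.38 to 0.40. Mbtps1 and Mbtps2, the Golgi proteases that release SREBPs, were picked for their role after their values were seen. Mbtps1 stood at 9.51 and 9.32 against 9.58 and 9.54, and Mbtps2 at 7.93 and 8.22 against 7.90 and 7.97. Mbtps1 has 3 probe sets, and the values are those of the probe set with the highest mean. The genes with the smallest p were Sec24b, a coat protein of vesicles leaving the endoplasmic reticulum, at a difference of 0.40, Ube2g2, a ubiquitin-conjugating enzyme, at -0.38 (other probe set -0.30), Sar1a, which starts that coat, at -0.22 (other probe set -0.40), and Erlin1, a membrane protein of the endoplasmic reticulum, at -0.24.

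The LXR list, which responds to sterol plenty, had 3 of 7 tested genes lower and 4 higher, 0 at an unadjusted limma p under 0.05, and a median of 0.02. The median was 0.34 without wild-type array 1, where 4 genes were higher at an unadjusted p under 0.05, in a setting where 12.1% of all genes had one. Without each of the other arrays in turn the median was 0.02 to 0.07 and 0 genes were higher with such a p, while 1 was lower without wild-type array 2. Abca1, a cholesterol exporter, stood at 10.23 and 9.67 on the wild-type arrays against 10.58 and 10.73 in the knockout, and differed by 0.71 (SE 0.26, limma adjusted p = 0.794). Its other probe set differed by 0.06. Apoe, an apolipoprotein, stood at 12.02 and 11.17 against 12.32 and 12.67, and differed by 0.91 (SE 0.37, limma adjusted p = 0.794). Abcg1, a second exporter, differed by 0.30, and Rxrb, a partner of LXR, by -0.28. Macrophages also make Apoe and Abca1. The macrophage list (6 of 6 genes tested, 4 higher) summed to 11.24 and 11.95 for wild type and 12.22 and 12.67 for the knockout, without overlap. Cd68 and Ctss differed by 1.11 and 0.83 without overlap, C1qa by 0.15, Csf1r by -0.22 and Adgre1 by -0.17. C1qb stood at 6.31 and 9.97 against 10.46 and 10.54, low on wild-type array 1 alone. The part of macrophages in these values was not tested.

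Among lipoprotein receptors and their trafficking 7 of 14 tested genes were lower and 7 higher, with a median of -0.08. The median was 0.08 without wild-type array 1 and 0.10 with plain probe sets only, against -0.15 without wild-type array 2 and -0.20 with no filter, so the list had no settled direction. Vldlr, a lipoprotein receptor that Mylip protein is known to target, was the 1 gene with an unadjusted limma p under 0.05. Vldlr stood at 8.46 and 8.46 on the wild-type arrays against 7.90 and 7.93 in the knockout, and differed by -0.54 (SE 0.15, limma adjusted p = 0.794). The other 2 tested probe sets differed by -0.16 and -0.06. Commd1, of a complex in endosomal recycling, differed by -0.39, and its other probe set by 0.18. Ube2d3 and Ube2d1, of the family of ubiquitin-conjugating enzymes that Mylip works with, differed by 0.33 and 0.32, and the other 6 probe sets of Ube2d3 by -0.18 to 0.50.

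Sterol transfer proteins other than Stard4 had 11 of 16 tested genes lower, 4 higher and 1 equal, with a median of -0.10. The median was -0.00504 without wild-type array 1 and -0.31 without wild-type array 2. At an unadjusted limma p under 0.05, 0 were lower and 1 was higher. That gene, Npc1, which moves cholesterol out of lysosomes, stood at 7.85 and 7.66 on the wild-type arrays against 8.70 and 8.49 in the knockout, and differed by 0.84 (SE 0.19, limma adjusted p = 0.794). Osbpl1a, an oxysterol-binding protein, differed by -0.53, and its other probe set by -0.0046. Nceh1, a cholesterol ester hydrolase, differed by -0.27, and its other 2 probe sets by -0.76 and -0.04. Stard3, an endosomal relative of Stard4, differed by -0.43.

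**Figure D4:**
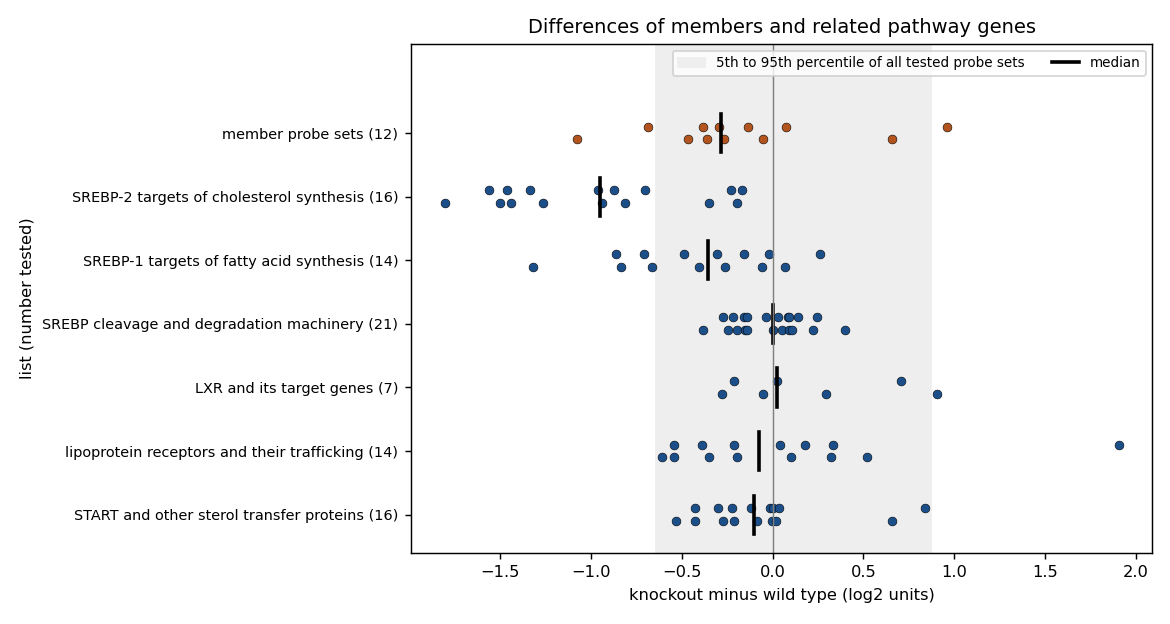
Knockout minus wild type in log2 units (horizontal axis) for the 12 tested member probe sets and for the tested genes of 6 pathway lists (vertical axis), 1 point each, with the median as a black bar. The grey band spans the 5th to 95th percentile of single tested probe sets, -0.64 to 0.87. The points of the cholesterol synthesis list, with a median of -0.95, all lie below 0.

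The genes most like a member were taken by the smallest root mean square difference, over the 4 arrays, of log2 values centred on their mean. With 4 arrays such likeness is easily met: 678 of 10103 genes lay within 0.1 of Srebf1 and 256 within 0.1 of Srebf2, both by their brightest probe set. The nearest to Srebf1 were Diablo, Rabac1 and Mtg1, at 0.0112, 0.0123 and 0.0157. The nearest to Srebf2 were BC003965, Nudt5 and Fam174c, at 0.0154, 0.0228 and 0.0260. For Insig1 there were 0 genes within 0.1, and the nearest were Pfdn4 at 0.106, A930005H10Rik at 0.113 and Sqle, which makes squalene epoxide, at 0.140. Sqle stood at 7.78 and 8.62 on the wild-type arrays against 6.92 and 6.96 in the knockout.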

How the data were processed

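Adrenal RNA of 2 wild-type and 2 V1a knockout samples was read on Affymetrix Mouse Genome arrays. Per the labels' protocols, mRNA was isolated from total RNA and had an RNA integrity number of 8.0 to 9.0. The deposited log2 expression values were made by the authors with GCRMA in Bioconductor 3.14, per the labels' protocols. That method takes background from probe sequence, so weak probe sets gather at a floor of 2.30. The log2 scale was read from the values, and the version of GCRMA is not stated in the labels.

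The deposited values were used as they are, without 64 control probe sets. Genes came from the platform annotation (34945 probe sets with 1 gene, 932 with several, 9160 with none), and 34741 were matched by gene ID to RefSeq's table of GRCm38.p6. Genotype, from the labels, was the sole term of a limma 3.58.1 model (R 4.3.3), with p-values adjusted by Benjamini-Hochberg across the 17228 tested probe sets and 2 residual and 1.73 prior degrees of freedom. The code was tested on simulated data. The number of arrays limits the precision.

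All probe sets of the 7 members were named, up to 4 genes of each pathway list by smallest p, and the 3 genes most like a member. Mbtps1, Mbtps2 and the marker genes were named outside this rule. The members, lists and tests were chosen with earlier results of these data known. Alternatives varied the filter (none, or 6 log2 units), the scaling (quantile, or each array's median), the moderation (trend and robust), the probe sets (those without a suffix such as _a_at), the block, the arrays (each left out in turn) and the summary per gene.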

Additional observations from a re-analysis of the deposited data

How the results depend on the processing

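Of the 12 tested member probe sets 9 kept their direction under each alternative run that included them, and 0 passed an adjusted p of 0.05 in any of these (limma, smallest 0.0776). The 3 that changed sign did so when single arrays were left out. Insig2 1417982_at ran from -0.39 to 0.12, Mylip from -0.45 to 0.59 and Stard4 1429240_at from -0.13 to 0.030. The count of all probe sets with an adjusted p under 0.05 was 2 in place of 0 with a filter at 6 log2 units, with quantile normalization, with arrays centred on their median and with plain probe sets only. These were Xaf1 and Adi1 each time, which are no members, and the cause was not tested. The count of members with both knockout arrays below the wild-type arrays ran from 5 to 9 with single arrays left out, where fewer arrays need to separate. That of members at an unadjusted p under 0.05, 2 on all arrays, ran from 0 to 6 in the same way, and was 1 among plain probe sets, because Stard4 1429239_a_at is not one. With the replicate block it was also 1, since Srebf2 1426744_at no longer passed. The labels share replicate numbers between genotypes without saying that they pair samples. The difference of replicate 1 minus 2 in wild type correlated with that in the knockout at 0.154 over the tested probe sets. Where a single array stood for a genotype, its spread was taken from the other one. Signals near the floor limit Mylip and Stard4 1429239_a_at.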
